A study of Mus musculus with 140 samples.

Results

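Cytochrome P450 genes were defined as autosomal protein-coding genes whose symbol is Cyp, a number, a letter and a number in GENCODE release M21 on mm10. The rule found 93 genes among 20807 autosomal protein-coding genes. Each gene was given a territory that ran 10 kb beyond its body at both ends, and every listed silencer interval overlapping a territory by at least 1 bp was taken. The study used Ss-STARR-seq, a reporter assay in which sonicated genome fragments are carried on plasmids and the RNA those plasmids give is compared with the plasmids put in. The labels describe 56 reporter RNA libraries from mouse embryonic stem cells (mESCs, kept in N2B27 medium with 2i and LIF, which holds them in the naive pluripotent state), 64 from mouse embryonic fibroblasts (MEFs, kept in DMEM with serum) and 20 of the input plasmid library, whose titles name hPGK. The mESC libraries carry 3 output set numbers and the MEF libraries carry 4. The protocols also mention induction of MEFs in iCD1 medium, without saying that the screened MEFs were induced. No genotype, strain, age or treatment separates the libraries in the labels. The input libraries are labelled with the interval lists of both cell types. The data were 2 deposited interval lists, 1 for each cell type. With 1 list a cell type, no difference between mESCs and MEFs had a replicate check, and intervals and genes are not replicates. Neither list holds reads or expression, so depth behind an interval is unknown and the labelled cell types could not be set against their markers.

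Cytochrome P450 enzymes are haem proteins, mostly of the endoplasmic reticulum, that insert an oxygen atom into lipids, hormones, drugs and pollutants. Most need electrons from cytochrome P450 reductase, and the mitochondrial members take them from ferredoxin. In the adult mouse most are best known from liver, adrenal, gonad, kidney and gut, and the large Cyp2, Cyp3 and Cyp4 families lie in tandem arrays of closely similar genes. Neither fibroblasts nor embryonic stem cells are a main site of their work, and the lists describe DNA tested in a reporter, not expression of the genes.

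The sequences below are those the results turn on: a pair of places where related genes carry a listed interval in the same stretch of their own sequence, and named intervals with a high fold or at a promoter. They were chosen after the values had been seen. All are from GRCm38.p6, the assembly behind mm10. Listed starts were read as counting from 1 and listed ends as exclusive, with an uncertainty of 1 bp. The first pair is the mESC interval in Cyp2c39 at chr19:39513903-39514052, plus strand, and the stretch of Cyp2c38 that aligns with it at chr19:39459855-39460007, minus strand. Each is the coding strand of its gene, and capitals mark bases that differ between them in the alignment.
Cyp2c39 intron: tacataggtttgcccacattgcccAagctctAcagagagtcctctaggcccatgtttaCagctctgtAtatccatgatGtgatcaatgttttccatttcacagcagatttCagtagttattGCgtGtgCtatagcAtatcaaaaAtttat
Cyp2c38 intron: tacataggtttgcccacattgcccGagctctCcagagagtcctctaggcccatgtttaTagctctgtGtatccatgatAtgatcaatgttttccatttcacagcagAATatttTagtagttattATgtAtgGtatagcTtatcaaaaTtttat
The next pair is the mESC interval touching a coding exon of Cyp2j12 at chr4:96112932-96113031 and the stretch of Cyp2j6 that aligns with it at chr4:96529451-96529547, both on the minus strand, with capitals used in the same way. The Cyp2j6 stretch runs past its own mESC interval, listed as chr4:96529361-96529509. The label exon means that the interval touches one, and not every base shown need be exon.
Cyp2j12 exon: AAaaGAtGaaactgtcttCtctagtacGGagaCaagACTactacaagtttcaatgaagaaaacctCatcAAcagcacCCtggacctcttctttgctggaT
Cyp2j6 exon: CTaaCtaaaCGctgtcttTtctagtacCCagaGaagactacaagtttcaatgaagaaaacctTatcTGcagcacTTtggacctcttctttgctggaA
The last 4 are whole listed intervals on the plus strand, with no base in capitals. They are the P450 interval with the highest fold in mESCs (Cyp2c39, chr19:39553465-39553514), an interval with a high fold in both lists (Cyp2a12, chr7:27039353-27039552 in mESCs), the highest in MEFs (Cyp2j12, chr4:96146601-96146700) and a promoter interval in MEFs (Cyp2r1, chr7:114562251-114562400).
Cyp2c39 mESC: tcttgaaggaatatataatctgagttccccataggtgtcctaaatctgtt
Cyp2a12 mESC: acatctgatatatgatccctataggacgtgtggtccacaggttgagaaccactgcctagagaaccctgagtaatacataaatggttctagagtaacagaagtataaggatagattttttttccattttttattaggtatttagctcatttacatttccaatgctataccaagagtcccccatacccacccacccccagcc
Cyp2j12 MEF: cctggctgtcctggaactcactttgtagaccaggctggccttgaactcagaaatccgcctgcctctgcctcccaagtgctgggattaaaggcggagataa
Cyp2r1 MEF: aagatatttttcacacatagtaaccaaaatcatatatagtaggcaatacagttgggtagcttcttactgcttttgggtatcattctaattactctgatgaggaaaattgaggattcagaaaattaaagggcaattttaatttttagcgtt

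The P450 territories merged to 4.197 Mb on 14 autosomes and held 175 distinct mESC intervals and 124 MEF intervals. That is 41.7 mESC intervals per Mb (95% exact Poisson interval 35.7 to 48.4) and 29.5 MEF intervals per Mb (24.6 to 35.2). Over all autosomal protein-coding territories the densities were 49.97 per Mb in mESCs and 38.5 per Mb in MEFs, so the P450 density was 0.834 and 0.767 of that in the same order of lists. All such exact intervals cover counting error only. A lower P450 density was not seen among intervals with an authors' fold of 3 or more. There, 44 mESC intervals gave 10.5 per Mb (exact Poisson interval 7.62 to 14.1) and 33 MEF intervals gave 7.86 per Mb (5.41 to 11.0). The values over all genes, 10.4 per Mb in mESCs and 6.67 per Mb in MEFs, lay inside those intervals, and the ratios were 1.01 in mESCs and 1.18 in MEFs. The 60 Serpin genes, another family with tandem arrays, had 49.5 intervals per Mb in mESCs and 45.0 in MEFs. The 48 ABC transporter genes had 56.1 and 44.0 per Mb. The mESC share of P450 intervals was 58.5% (exact Clopper-Pearson interval 52.7 to 64.2%), beside 56.5% over all genes.

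**Figure D1:**
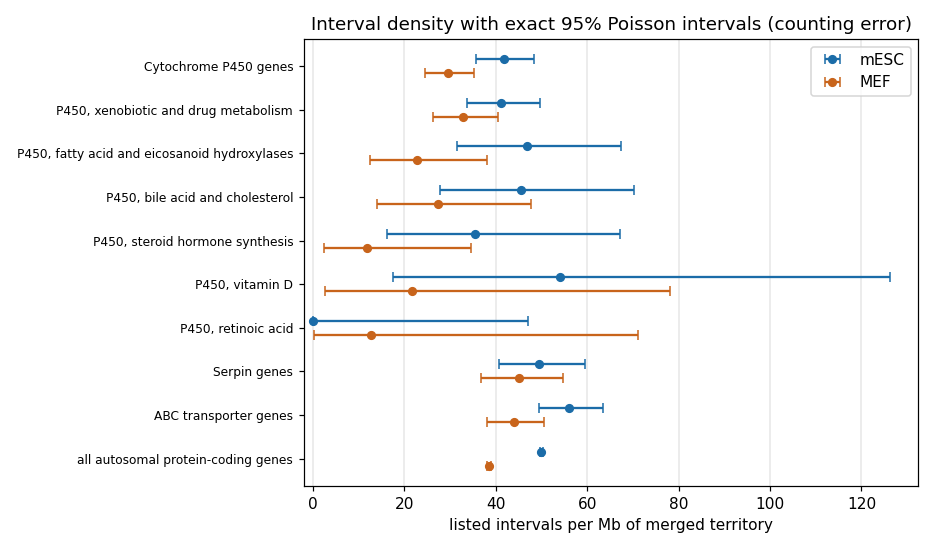
Listed intervals per Mb of merged territory for the P450 genes, 6 of their role groups, Serpin genes, ABC transporter genes and all autosomal protein-coding genes. Points are densities (blue mESC, orange MEF) and bars are exact 95% Poisson intervals; P450 genes sit at 41.7 in mESCs and 29.5 in MEFs, below the 49.97 and 38.5 of all genes.

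At least 1 mESC interval lay in the territory of 75 of the 93 genes (80.6%), beside 77.3% of all autosomal protein-coding genes. At least 1 MEF interval lay in that of 61 (65.6%), beside 70.3% of all genes. Territory length sets much of such a count, so genes within the members' middle range of territory length (30.0 to 55.4 kb) were also counted. In it, 38 of 47 P450 genes (80.9%) had an mESC interval beside 78.8% of all such genes, and 27 (57.4%) had a MEF interval beside 70.5%. At least 1 interval that overlapped the other list was found at 40 P450 genes (43.0%, all genes 51.3%). More mESC than MEF intervals were listed at 47 genes (50.5%, all genes 46.8%), more MEF intervals at 19 (20.4%, all genes 20.4%) and equal numbers at 17. No interval of either list fell at 10 genes (10.8%), beside 16.2% of all genes, and in the length range at 5 (10.6%) beside 14.1%. These were Cyp2a4, Cyp2a22, Cyp2b13, Cyp2c29 and Cyp2g1 of the drug-metabolising families, Cyp4a10 and Cyp4f16 of the fatty acid hydroxylases, Cyp21a1 (steroid synthesis), Cyp27b1 (vitamin D activation) and Cyp26b1 (retinoic acid breakdown). None of these shares was tested.

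**Figure D2:**
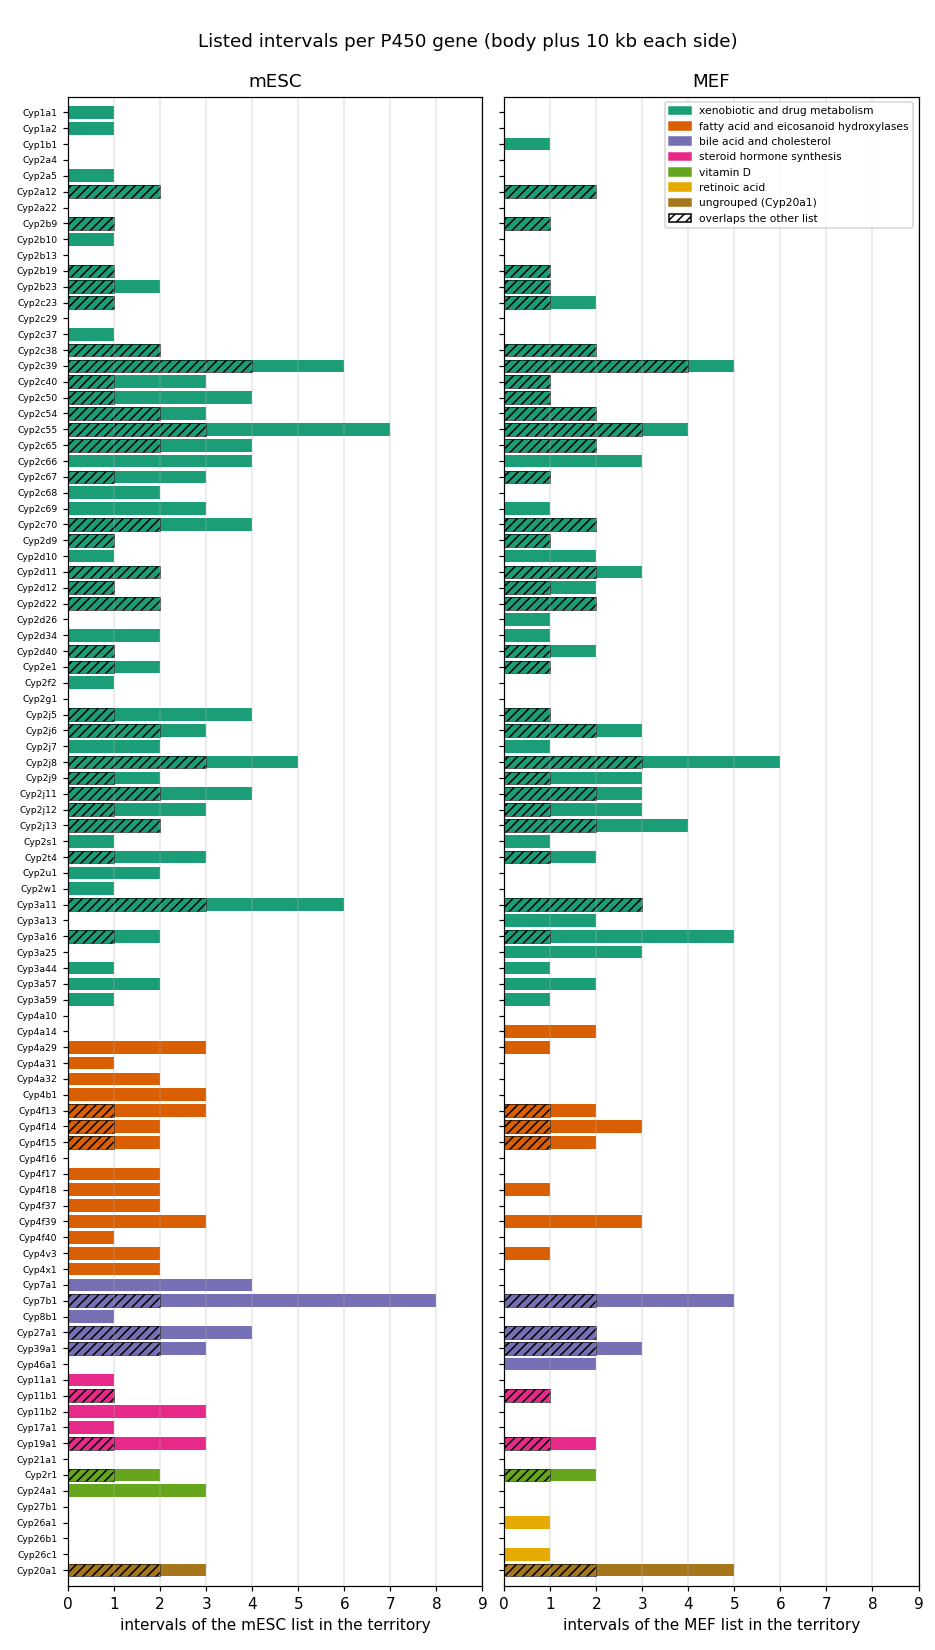
Listed intervals in the territory of each of the 93 P450 genes, mESC list left and MEF list right, coloured by role. Bars are counts and hatched parts overlap the other list; the longest bars are Cyp7b1 with 8 in mESCs and Cyp2j8 with 6 in MEFs.

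The share of mESC intervals was tested for each gene against the share over all territories with a two-sided exact binomial test, Benjamini-Hochberg adjusted over the 3511 genes with at least 10 intervals. No gene was called in either direction (0% toward mESC and 0% toward MEF), while 26 genes had an unadjusted p under 0.05 and 10 of those leaned to mESC. Only 4 P450 genes had enough intervals to enter, with 11 to 13 each. At such totals the adjustment over 3511 genes left hardly any split that could be called. A place listed in both lists also counted once on each side. That these genes were not called therefore says little about them. Cyp7b1 had 8 mESC and 5 MEF intervals, Cyp2c55 had 7 and 4, Cyp2c39 had 6 and 5, and Cyp2j8 had 5 and 6. Their exact unadjusted p ran from 0.548 to 1 and every adjusted p was 1. With 5 intervals as the minimum, 26 P450 genes were among 8118 tested, 0 genes were called, and the smallest exact unadjusted p of a P450 gene was 0.251. The counts per gene below are therefore a description of these lists, and no P450 gene is shown to differ between the cell types or to be alike in them.

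Among the 57 genes of the drug- and pollutant-metabolising Cyp1, Cyp2 and Cyp3 families, 27 had more mESC intervals, 13 had more MEF intervals, 12 had equal numbers and 5 had none. Over all genes, 46.8% had more mESC and 20.4% more MEF intervals. Together the 57 genes held 109 distinct mESC and 87 MEF intervals. The Ah receptor target genes had 0 or 1 interval in each list, a common count among P450 genes. Over the merged Cyp1a1 and Cyp1a2 territories the exact density intervals were 0.540 to 119 per Mb in mESCs and 0 to 78.7 in MEFs. Both held the values of all genes, so a low density was not established there. Cyp1a1 and Cyp1a2, which oxidise polycyclic aromatic hydrocarbons and arylamines, each counted 1 mESC interval and 0 MEF intervals, and it was the same interval because their territories overlap. It lay in an intron of Cyp1a2 with a fold of 2.20. Cyp1b1, an oxidase of oestrogens and aromatic hydrocarbons, had 0 mESC intervals and 1 MEF interval, 16.0 kb downstream of its start, with a fold of 2.50. Cyp2e1 (chr7:140763739-140774987), the ethanol-inducible oxidase, had 2 mESC intervals and 1 MEF interval. The interval 8.77 kb upstream of Cyp2e1, chr7:140754871-140755071 in mESCs and chr7:140754851-140755051 in MEFs, had a fold of 4.52 in the mESC list and 3.19 in the MEF list. Its sequence was unique in the genome by every 31-mer it holds in mESC coordinates (100%). Cyp2s1 had 1 interval in each list, at different places, and Cyp2u1, a hydroxylase of long-chain fatty acids, had 2 in mESCs and 0 in MEFs.

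The Cyp3a genes, whose products oxidise many drugs and steroids, had small counts that did not all lean one way. Cyp3a11 (chr5:145854426-145879964), the main mouse liver member, had 6 mESC and 3 MEF intervals, and all 3 MEF intervals overlapped the mESC list. They lay in the second intron 3.3 kb from its start, 4.3 kb upstream and 35.1 kb downstream of the start. By mESC coordinates these places had 94.4%, 0% and 20.0% unique 31-mers in the same order. The upstream and downstream places were 100% soft-masked. Cyp3a16 was the reverse, with 2 mESC and 5 MEF intervals, the lowest mESC share (28.6%) among the 26 genes with at least 5 intervals. Cyp3a25, named here after its values were seen, had 0 mESC and 3 MEF intervals, and Cyp3a13 had 0 and 2. The remaining Cyp3a genes, named to complete the family, had equal numbers. Cyp3a57 had 2 and 2, and Cyp3a44 and Cyp3a59 had 1 and 1 each. Unique 31-mers made up 63.8% of the Cyp3a11 territory, 66.4% of that of Cyp3a16 and 91.6% of that of Cyp3a13.

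The largest array, Cyp2c55 to Cyp2c70 on chromosome 19, held 14 genes, 45 mESC intervals (49.7 per Mb) and 24 MEF intervals (26.5 per Mb). Cyp2c enzymes oxidise drugs and arachidonic acid. Of the MEF intervals 18 (75%) overlapped the mESC list, and 18 mESC intervals (40.0%) overlapped the MEF list. Cyp2c55 had 7 mESC and 4 MEF intervals, Cyp2c39 had 6 and 5, Cyp2c66 had 4 and 3, and Cyp2c65 had 4 and 2. Cyp2c70, the mouse enzyme that makes muricholic bile acids, had 4 and 2. Cyp2c66 had no interval that overlapped the other list. Cyp2c50 (4 mESC, 1 MEF) and Cyp2j5 (4 mESC, 1 MEF) shared the highest mESC share among genes with at least 5 intervals, 80%. Cyp2c29, inside the same array, had 0 in both lists. The Cyp2c29 territory had 67.2% unique 31-mers and 56.0% soft-masked repeat, and the whole array had 55.4% and 56.5%. The second largest array, Cyp2j13 to Cyp2j5 on chromosome 4, held 8 genes of a family that makes epoxides of arachidonic acid. It had 24 mESC and 23 MEF intervals (49.0 and 47.0 per Mb). Here Cyp2j8 had 5 mESC and 6 MEF intervals, Cyp2j11 had 4 and 3, Cyp2j12 and Cyp2j6 had 3 and 3 each, and Cyp2j13 had 2 and 4.

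**Figure D3:**
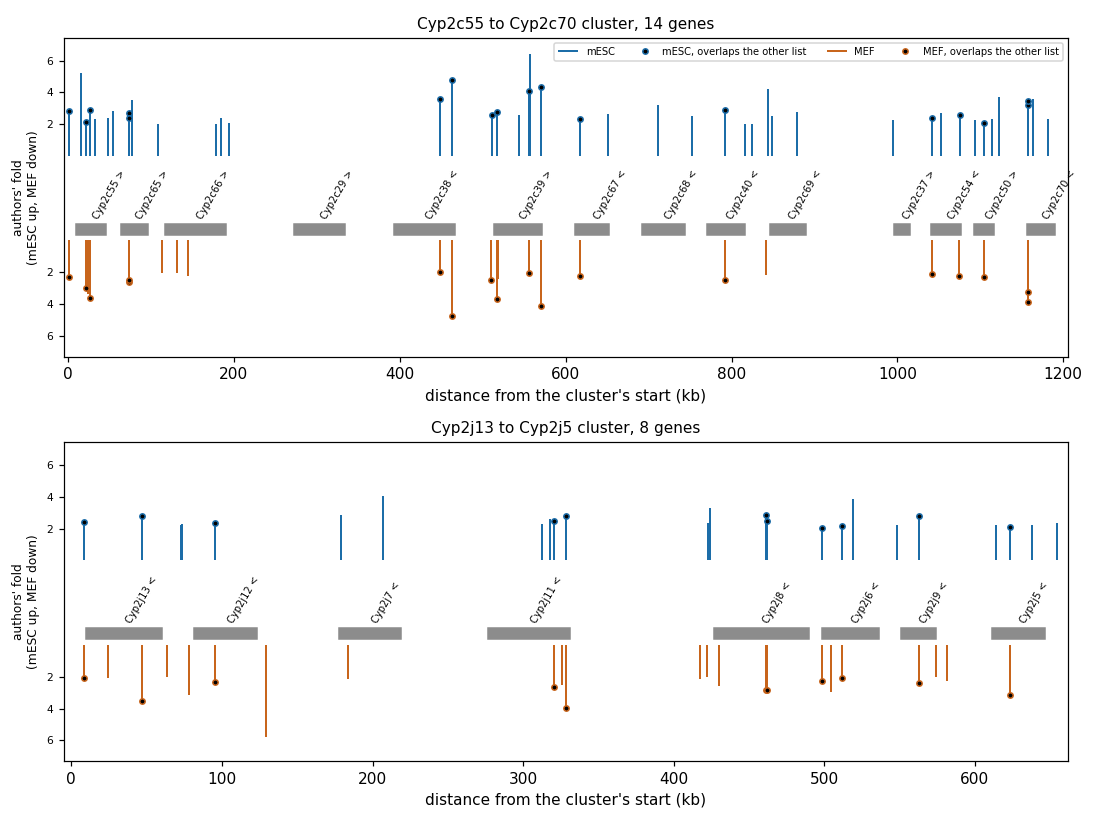
Maps of the arrays with the most intervals, with distance from the array's start in kb on the x axis, gene bodies as grey boxes and > or < for the plus or minus strand. Lines are listed intervals with the authors' fold as height (mESC up, MEF down) and dots mark overlap with the other list; the Cyp2c29 body is empty in both lists.

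Of the other arrays, Cyp2b13 to Cyp2a4 on chromosome 7 was nearly empty, with 1 mESC and 1 MEF interval (7.15 per Mb in each list, exact interval 0.181 to 39.8). Unique 31-mers made up 53.7% of it. The neighbouring Cyp2b23 to Cyp2t4 array, 8 genes, had 10 mESC and 6 MEF intervals, and the Cyp2d22 to Cyp2d34 array had 7 and 8. The 70 genes in arrays had 43.4 mESC and 31.3 MEF intervals per Mb, and the 23 genes standing alone had 37.1 and 25.1 per Mb. Unique 31-mers made up 68.4% of the sequence in arrays and 90.9% of that around lone genes.

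The 17 fatty acid and eicosanoid hydroxylases of the Cyp4 family had 29 mESC and 14 MEF intervals. More mESC intervals were listed at 11 of them and more MEF intervals at 2, with 2 equal and 2 empty. The shares over all genes were 46.8% and 20.4%, and the difference was not tested. An interval that overlapped the other list was found at 3 of the 17, beside 43.0% of all P450 genes and 51.3% of all genes. The median number of MEF intervals at a Cyp4 gene was 0, and their median territory was 38.0 kb, beside 41.2 kb for all P450 genes. Cyp4b1, a lung enzyme that activates protoxins, had 3 mESC and 0 MEF intervals. That with the highest fold (3.77) lay 6.3 kb upstream, and the other intervals were 0% and 16.6% unique by 31-mers. Cyp4v3, a fatty acid hydroxylase whose human counterpart acts in the eye, had 2 and 1. Cyp4f39, tied with the 15 genes with the most intervals, had 3 and 3 with no overlap between them.

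The 6 bile acid and cholesterol genes had 20 mESC and 12 MEF intervals. Cyp7a1 (chr4:6265612-6275633), the rate-limiting enzyme of bile acid synthesis, had 4 mESC and 0 MEF intervals. Those in its intron 3 lay 50 bp apart at chr4:6271351-6271401 (fold 3.48) and chr4:6271451-6271851 (fold 3.39), with 100% unique 31-mers. Cyp8b1, which sets the cholic acid share of bile, had 1 mESC interval 3.8 kb upstream and 0 MEF intervals. Cyp7b1 (chr3:18071950-18243338), an oxysterol hydroxylase with the longest territory (191 kb), had 8 mESC and 5 MEF intervals, 2 of them overlapping between lists. Its largest fold was 3.27 in mESCs and 3.75 in MEFs. Cyp27a1, the mitochondrial sterol hydroxylase, had 4 and 2, and both of its MEF intervals overlapped the mESC list. Cyp39a1, another oxysterol hydroxylase, had 3 and 3. Cyp46a1, the cholesterol hydroxylase of neurons, had 0 mESC and 2 MEF intervals and was the only gene of the 6 with more MEF intervals.

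The 6 steroid hormone genes had 9 mESC and 3 MEF intervals, with more mESC intervals at 4, more MEF intervals at 0, equal numbers at 1 and none at 1. Of all genes, 46.8% had more mESC and 20.4% more MEF intervals. Cyp19a1, the aromatase that makes oestrogens, had 3 and 2 over its long territory. Cyp11b2, the aldosterone synthase, which was named after its values were seen, had 3 mESC and 0 MEF intervals, all between 3.9 and 5.3 kb upstream. Its neighbour Cyp11b1, which makes corticosterone, had 1 interval in each list at the same place 8.6 kb downstream of its start, with folds of 2.71 in mESCs and 3.35 in MEFs. Cyp11a1, which cleaves the cholesterol side chain, and Cyp17a1, which makes androgen precursors, each had 1 mESC and 0 MEF intervals. Cyp21a1 had 0 and 0.

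In the vitamin D group Cyp24a1, which breaks down active vitamin D, had 3 mESC and 0 MEF intervals, and 2 of the mESC intervals lay in its untranslated sequence with folds of 2.14 and 2.59. Cyp2r1, a vitamin D hydroxylase of liver, had 2 and 2, with folds of 3.06 in mESCs and 3.42 in MEFs at a shared place 22.3 kb from its start. Its other MEF interval lay in the first intron 0.65 kb from the start. Cyp27b1, which makes active vitamin D in kidney, had 0 and 0. The 3 Cyp26 genes, which break down retinoic acid and are themselves retinoic acid targets in embryonic cells, had 0 mESC intervals and 1 MEF interval in all. It lay at chr19:37701727-37701865, just beyond the end of Cyp26a1 and within 10 kb of Cyp26c1, with a fold of 3.89 and 100% unique 31-mers. Cyp26b1 was empty in both lists. The merged territory of these 3 genes was 0.0785 Mb. For it a count of 0 allows up to 47.0 mESC intervals per Mb (exact upper limit), so a density as low as 0 was not established. That limit lies just below the 49.97 per Mb of all genes, but it covers counting error only and the difference was not tested. In MEFs the exact interval, 0.323 to 71.0 per Mb, held the 38.5 of all genes. Cyp20a1 (chr1:60343323-60388060), an orphan P450 with no group here, had 3 mESC and 5 MEF intervals.

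Folds of P450 intervals were close to those of all territories within each list. The median authors' fold was 2.44 in mESCs and 2.34 in MEFs, against 2.39 and 2.35 over all genes. The 5 highest in mESCs were in the fifth intron of Cyp2c39 (6.44), downstream of Cyp2a12 (6.32), in Cyp2c55 (5.19), 2.1 kb upstream of Cyp20a1 (5.13) and in the third intron of Cyp2c38 (4.79). The 5 highest in MEFs were upstream of Cyp2j12 (5.79), downstream of Cyp2c23 (4.76), in the third intron of Cyp2c38 (4.72), upstream of Cyp2d40 (4.29) and in the seventh intron of Cyp2c39 (4.08), where the interval downstream of Cyp2a12 was level to 3 digits (4.08). The Cyp2c38 place was among the 5 highest of both lists. The highest MEF interval, whose sequence is given above, was 100% soft-masked and 5.71% unique. The highest mESC interval was 0% masked and 100% unique. That contrast did not extend to the other intervals just named. In mESCs the Cyp2a12 interval was 75.5% masked and 30% unique. Those of Cyp2c55, Cyp20a1 and Cyp2c38 were 45.7%, 76.3% and 91.9% unique. In MEFs those of Cyp2c23, Cyp2d40 and Cyp2c39 were 35%, 92.3% and 71.7% unique, and that of Cyp2c38 was above 92.3%. Intervals that overlapped the other list had medians of 2.81 in mESCs and 2.64 in MEFs, and list-only intervals had 2.32 and 2.28. Of the mESC intervals 60 (34.3%, all genes 36.3%) overlapped a MEF interval, and 60 MEF intervals (48.4%, all genes 47.3%) overlapped an mESC interval. Intervals with identical bounds in the 2 lists numbered 0.

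**Figure D4:**
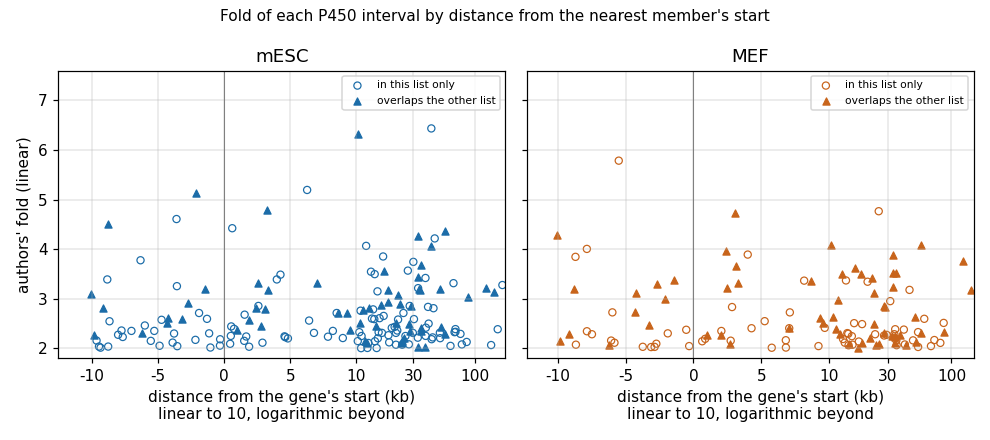
Authors' fold of each P450 interval against distance from the start of the nearest P450 gene (kb, negative upstream, linear to 10 kb and logarithmic beyond), mESC left and MEF right. Filled triangles overlap the other list and open circles do not; the highest fold is 6.44 in mESCs and 5.79 in MEFs.

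Most P450 intervals were away from promoters. In mESCs 39 lay upstream of the gene, 100 in the body and 36 downstream, and in MEFs 27, 68 and 29. Bodies made up 59.4% of the merged territory, and 57.1% of mESC and 54.8% of MEF intervals were in them. By midpoint, introns held 52.0% of mESC and 50.8% of MEF intervals, beside 54.2% of the territory's sequence. Promoters of any gene (1 kb either side of a transcript start) held 6.29% and 4.84%, beside 7.32% of the sequence. Over a P450 gene's own promoter lay 10 mESC intervals, at Cyp2a12, Cyp2c50, Cyp2c67, Cyp2t4, Cyp2w1, Cyp3a59, Cyp4a29, Cyp4b1, Cyp4f39 and Cyp19a1, and 5 MEF intervals, at Cyp2a12, Cyp2d11, Cyp2j9, Cyp2r1 and Cyp3a25. For Cyp4f39 and Cyp19a1 the start is that of a transcript within the gene body. Only the Cyp2a12 promoter was listed in both. Their folds ran from 2.05 to 4.42 in mESCs, with the highest at Cyp2t4 in a wholly repeat-masked stretch (0% unique 31-mers). A P450 coding exon was touched by 6 mESC intervals (Cyp2c50, Cyp2c54, Cyp2c55, Cyp2j6, Cyp2j12 and Cyp4x1) and 6 MEF intervals (Cyp2c55, Cyp2c66, Cyp2j6, Cyp2j12, Cyp4f39 and Cyp20a1).

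The P450 arrays hold close copies of one another, and reads from identical stretches cannot be placed. Of the 31-mers starting every 50 bp of the P450 territories, 74.6% occurred once in the genome, against 88.1% in all territories and 78.3% in Serpin territories. Soft-masked repeat made up 39.3% of P450 territories, against 28.7% of all territories. The intervals themselves were on average 47.6% masked in mESCs and 44.7% in MEFs, beside 39.7% and 37.8% over all genes. All P450 intervals divided by the Mb of unique sequence gave 55.9 in mESCs and 39.6 in MEFs, against 56.7 and 43.7 over all genes. The ratios were 0.986 and 0.906. These are not densities within unique sequence, because intervals in repeated sequence were counted too. Of the P450 intervals, 40 of 175 in mESCs and 19 of 124 in MEFs were under 50% unique. Across 1 kb bins the relation was not a simple one. In bins under 50% unique, P450 territories had 33.4 mESC and 11.1 MEF intervals per Mb, against 32.2 and 23.5 over all genes. In bins of 50 to 80% they had 44.1 and 33.6, against 80.01 and 55.2. In bins of 80 to 95% they had 63.7 and 36.9, against 75.8 and 56.0. In bins of at least 95% they had 33.5 and 32.9, against 41.5 and 33.5. Bins of at least 95% made up 41.0% of P450 territories and 67.1% of all territories. The part of read placement in these densities was not tested.

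**Figure D5:**
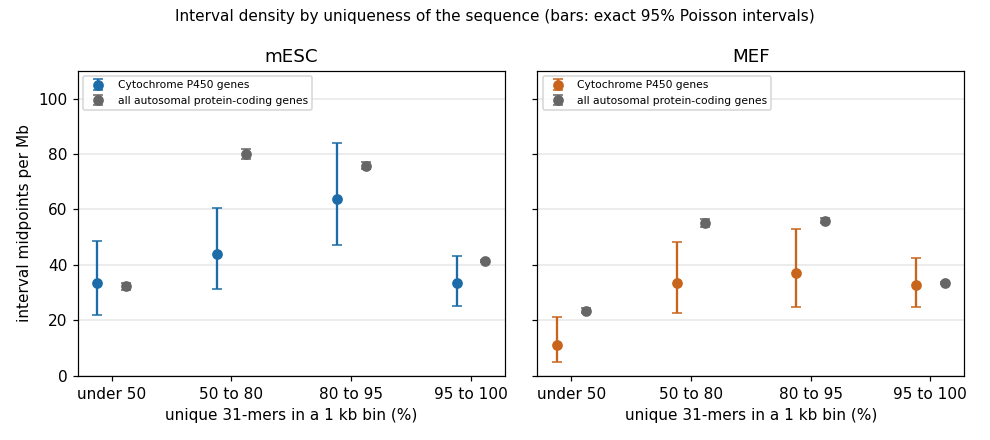
Interval midpoints per Mb in 1 kb bins grouped by the share of 31-mers that occur once in the genome, mESC left and MEF right. Coloured points are P450 territories, grey points all autosomal protein-coding territories, and bars exact 95% Poisson intervals; in bins of 50 to 80% the P450 points (44.1 and 33.6) lie below those of all genes (80.01 and 55.2).

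Whether related genes carry an interval in the same stretch of their sequence was looked at after the positions had been seen, and has no test. Each interval, or the 300 bp around a shorter one, was aligned with the territories of the other P450 genes, asking for at least 100 unmasked bases at 80% identity or more. Such a copy was found for 38 of 175 mESC intervals (21.7%) and 28 of 124 MEF intervals (22.6%), beside 23.3% of 300 bp tiles across all P450 territories. A copy was itself listed in the same cell type for 4 of the 38 mESC intervals and 4 of the 28 MEF intervals. Counted by place, 4.55% of 88 copies in mESCs and 6.78% of 59 copies in MEFs were listed, while 1.85% and 1.16% of the copies of tiles were. The shares for intervals rest on 4 places in each list, because a pair of listed copies counts from both sides. Intervals over 300 bp were also aligned whole, unlike tiles, so no excess over tiles is shown. The 4 intervals of each list made up the same 2 pairs of genes. In Cyp2c38 and Cyp2c39 the intervals lay in the third intron, 3.2 and 3.1 kb from the start in mESCs and 3.1 kb from both starts in MEFs. Their folds were 4.79 and 2.80 in mESCs, and 4.72 and 3.65 in MEFs. The stretches printed above were 90.2% identical over 153 alignment columns, and the mESC intervals held 91.9% unique 31-mers in Cyp2c38 and 100% in Cyp2c39. In Cyp2j12 and Cyp2j6 the intervals touched a coding exon, with folds of 2.35 and 2.14 in mESCs and 2.31 and 2.06 in MEFs. Those stretches were 80.4% identical over 102 columns, and the mESC intervals held 85.7% unique 31-mers in Cyp2j12 and 91.5% in Cyp2j6. The other copies were not listed, at a median identity of 88.9% in mESCs and 86.1% in MEFs.

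Motifs of factors known to control P450 genes were searched on both strands in the 300 bp centred on each interval. AGGTCA, the nuclear receptor core site, was in 14.9% of P450 windows in mESCs and 16.9% in MEFs, beside 14.1% and 14.6% of all windows of those lists. GCGTG, the core of the Ah receptor site, was in 8.57% and 8.06%, beside 10.9% and 11.4%. TTNNGCAA, a C/EBP site that also covers TTGCGCAA, was in 11.4% and 11.3%, beside 12.8% and 13.4%, and TTGCGCAA itself was in 0 windows. AGAACA, the glucocorticoid receptor core site, was in 25.1% and 30.6%, beside 25.6% and 26.3%. The DR4 repeat was in 1 MEF window, downstream of Cyp3a13, and DR1, ER6 and HNF1 were in 0. In these windows the exact intervals of the P450 shares held the value of all windows for each of these motifs that was found in over 1 window. In the 72 P450 promoters matched in the RefSeq table (250 bases before to 50 after the start, GRCm38.p6), AGGTCA was in 27.8%, GCGTG in 20.8%, TTNNGCAA in 22.2% and AGAACA in 26.4%, beside 16.0%, 32.9%, 10.9% and 19.0% of all autosomal promoters there. For these promoters the exact intervals of the P450 shares left out the value of all promoters for AGGTCA (17.9 to 39.6%), GCGTG (12.2 to 32.0%) and TTNNGCAA (13.3 to 33.6%), and held it for AGAACA (16.7 to 38.1%). These exact intervals count each window or promoter as independent, though 70 of the 93 P450 genes lie in arrays of similar genes. They may therefore be too narrow, and no difference in motif share was tested. A match is a match of letters only.

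Of 25 other genes, comprising electron donors, haem synthesis genes, regulators and 3 P450 genes with other symbols, 13 had more mESC intervals, 8 more MEF intervals, 2 equal numbers and 2 none. More mESC intervals were listed at 46.8% of all genes and more MEF intervals at 20.4%. The electron donor Por had 5 mESC and 2 MEF intervals, and Cyb5b had 7 and 8. Among regulators, Arnt, the partner of the Ah receptor, had 14 and 12, Ahr had 6 and 2, Hnf4a had 6 and 3, and Rara, a retinoic acid receptor, had 6 and 0. Vdr, the vitamin D receptor, had 0 and 2, and Nr0b2, a repressor of bile acid synthesis, had 0 and 2. Fech, which inserts iron into protoporphyrin to make haem, had 1 and 5. Fdxr and Nr5a1 had none.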

How the data were processed

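Both interval lists were used as deposited. The authors deposited a linear fold ratio for each interval, per the file headers, and every value lay above 2. Bowtie2, SAMtools and the build hg38 are named, without versions or roles, per the submitters' processing notes, while the design text names mm10. All chromosome names were mouse names and 0 intervals ended beyond an mm10 chromosome, so mm10 was used. Not given in the sources used here: which libraries were divided by which, the scaling, the caller and the handling of replicates. Folds were therefore compared only within a list and a high fold is not read as strong silencing. Depth per sample is unknown.

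Gene bodies and transcripts came from the GENCODE M21 basic annotation, and sequence and soft-masked repeats from GRCm38.p6. Intervals inside a gene body but outside its basic transcripts count as intergenic. Uniqueness of territories, arrays and bins was read from 31-mers starting every 50 bp, and that of single intervals from every 31-mer they hold. Python 3.11.15, numpy 2.4.6, pandas 2.3.3, scipy 1.17.1 and blastn 2.17.0 (maximum e-value 1e-10) were used. The binomial test was tested on simulated data. Members and gene lists were chosen with earlier results of these data known, and the copy search was added after positions were seen. Named genes were the 15 with the most intervals, the highest and lowest mESC share among genes with at least 5, genes with an unadjusted p under 0.05 (0 found) and a fixed set, together with empty genes. Named intervals were the 5 highest folds per list and those over P450 promoters or coding exons. Alternatives varied territory, overlap, fold, symbol rule, repeats, sharing, promoter width and motif window.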

Additional observations from a re-analysis of the deposited data

How the results depend on the processing

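No paired analysis was possible because each cell type has 1 list, whose columns carry no replicate number, and for the same reason no replicate could be left out. Of the values for the P450 genes as a whole, 102 stayed within 1.5 times or within their error over the alternatives run, 41 moved and 0 reversed. Of 1009 mESC minus MEF counts of single genes, none of them a called difference, 892 stayed and 117 moved, and 22 of these, at 15 genes, changed sign. The ratio of P450 density to that of all genes is not among these values. Many moved by construction, since fewer intervals or less sequence was counted. Distinct intervals were 100 in mESCs and 68 in MEFs for bodies alone (40 genes with a MEF interval, 34 genes empty), 76 and 57 for 10 kb either side of the start (26 empty), and 270 in mESCs with 25 kb flanks (3 empty). At or above the list's median fold they were 90 and 61 (21.4 and 14.5 per Mb, 40 genes with a MEF interval, 30 empty). With a fold of 3 or more they were 44 and 33 (10.5 and 7.86 per Mb, 33 and 28 genes, 49 empty). Under 50% soft-masked they were 94 and 72 (22.4 and 17.2 per Mb, 26 empty). All intervals over the Mb of unique sequence gave 55.9 and 39.6 per Mb. The density relative to all genes ran from 0.697 to 1.01 in mESCs and from 0.668 to 1.18 in MEFs over these settings. The lowest ratios were those of intervals under 50% soft-masked, which were still divided by whole territories. Soft-masked repeat made up 39.3% of P450 territories and 28.7% of all territories, and its part in those ratios was not tested. Of the settings listed, the relative density was above 1 only at a fold of 3 or more. There the P450 counting intervals held the values of all genes, and the cause was not tested. The mESC share was 64.2% of list-only intervals. Sharing was 25.1% in mESCs and 35.5% in MEFs with overlap of at least 50% of both intervals. With promoters of 5 kb either side, promoters held 33.1% and 31.5% and introns 38.9% and 38.7%. In whole intervals AGGTCA was in 9.14% and 9.68%, AGAACA in 18.9% in mESCs and DR4 in 0% in MEFs. Mean GC of the MEF intervals with at least the median fold was 38.0%. The binomial test called 0 genes at a minimum of 5 intervals (8118 tested, 63 at an unadjusted p under 0.05), on list-only intervals (1654 tested, 67) and on bodies alone (2611 tested, 12).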
